A study of Mus musculus with 12 samples.

Results

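MHC class II molecules are the surface proteins with which macrophages, dendritic cells and B cells show peptides from engulfed material to CD4+ T cells. The 10 genes described here were taken by name from the 53801 genes of the deposited count tables. H2-Aa, H2-Ab1 and H2-Eb1 encode chains of the peptide-binding molecules I-A and I-E. Cd74 encodes the invariant chain, which fills the binding groove and guides the molecule to the endosome. H2-DMa, H2-DMb1 and H2-DMb2 encode the chains of H2-DM, which removes the invariant chain remnant and edits the bound peptides. H2-Oa and H2-Ob encode H2-DO, an inhibitor of H2-DM, and Ciita encodes the transactivator of class II transcription. CIITA does not bind DNA itself but docks onto RFX, CREB and NF-Y factors at the X and Y boxes of class II promoters, and interferon gamma is its best-known inducer outside the professional antigen-presenting cells.

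All cells came from cutaneous squamous cell carcinomas of FVB mice and were sorted by flow cytometry. There were 12 libraries. FceRIa-positive and FceRIa-negative tumor macrophages, both gated as CD45+ F4/80+, gave 3 libraries each, and mScarlet-positive and mScarlet-negative basal tumor cells, both gated as Rosa-YFP+ CD49f+ CD29+, also gave 3 each. FceRIa is the subunit of the high-affinity IgE receptor that binds the antibody, and mScarlet reported TGF-beta signalling. The sources used here do not give the age of the mice, the number of tumors per library, the driver of the YFP mark or what a replicate number marks. The values are counts of reads per gene. They are given as CPM, counts scaled for the depth of the libraries within 1 table, and a log2 difference is positive minus negative cells with its standard error (SE).

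Total counts were 33704786 to 40041144 in the macrophage libraries and 27951632 to 35088897 in the tumor cell libraries, and a count of 0 allows up to 3 counts, or 0.0749 to 0.107 CPM. The macrophage gene Csf1r averaged 2787 ± 382 CPM in FceRIa-positive and 2468 ± 223 CPM in FceRIa-negative macrophages (SD, n = 3 each), and Krt14, a keratin of basal cells, averaged 35370 ± 5019 CPM in reporter-positive and 35079 ± 2543 CPM in reporter-negative tumor cells. Fcer1a itself had 2, 7 and 1 counts in FceRIa-positive and 0, 4 and 3 counts in FceRIa-negative macrophages, too few to check the surface sort from RNA. Libraries of replicate 2 stood apart in both tables. In the macrophages they differed in some class II transcripts, and in the tumor cells they held more leukocyte RNA. Results that rest on these libraries are given with and without them.

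Ciita is on chromosome 16 (10480059 to 10528418, + strand, GRCm38, GENCODE M21), and the 8 H2 genes lie in the class II region of chromosome 17, between 34092340 (the start of H2-Oa) and 34316674 (the end of H2-Eb1). H2-DMb1 and H2-DMb2 are near-identical neighbours: 369 stretches of 50 bases occur in transcripts of both, which is 22.7% of those of H2-DMb1 and 21.2% of those of H2-DMb2. How shared reads were counted is not stated, and the split of reads between them is uncertain. Exons of H2-DMa and H2-Oa also overlap genes on the other strand (Brd2 over 10.4% and the antisense gene BC051537 over 22.8% of exon bases).

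The promoters of 7 of the 10 genes were matched in RefSeq by symbol (GRCm38.p6). They were searched over the 250 bases before the start, on both strands, for the core of the X box (AG, any 2 bases, AC, any base, GATG) and for ATTGG, the letters of the Y box. These motifs did not overlap in the promoters shown. The 7 genes had 8 promoters. The X box letters were in 3 of the 8, against 0.816% of 32851 mouse promoters of the same length. The Y box letters were in 7 of the 8, against 33.8%, and the H2-DMa promoter at 34122582 to 34122831 held neither. Both in order with 12 to 40 bases between them occurred in 10 (0.0304%) of all promoters, among them those of H2-Eb1 and H2-DMb1. A match describes letters and does not show binding. The 4 promoters below are shown because they include those with the paired boxes (H2-Eb1, H2-DMb1), the near-copy of H2-DMb1 that lacks the X box letters (H2-DMb2), and the gene with the largest difference between the macrophage groups (H2-Oa). Capitals mark the X and Y box letters (CCAAT is ATTGG on the other strand), and each reads 5′ to 3′ on the gene's + strand.
H2-Eb1 (chr17:34305617-34305866): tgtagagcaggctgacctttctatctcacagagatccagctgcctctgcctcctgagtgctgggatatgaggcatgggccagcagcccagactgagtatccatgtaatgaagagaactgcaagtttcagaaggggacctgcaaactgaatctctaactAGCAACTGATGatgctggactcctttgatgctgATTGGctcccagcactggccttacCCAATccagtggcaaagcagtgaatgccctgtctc
H2-DMb1 (chr17:34152941-34153190): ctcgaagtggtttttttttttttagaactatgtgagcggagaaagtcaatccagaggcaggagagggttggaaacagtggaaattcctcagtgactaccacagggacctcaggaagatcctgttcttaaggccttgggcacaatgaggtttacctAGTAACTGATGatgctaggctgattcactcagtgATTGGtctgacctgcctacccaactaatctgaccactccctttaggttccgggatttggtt
H2-DMb2 (chr17:34144999-34145248): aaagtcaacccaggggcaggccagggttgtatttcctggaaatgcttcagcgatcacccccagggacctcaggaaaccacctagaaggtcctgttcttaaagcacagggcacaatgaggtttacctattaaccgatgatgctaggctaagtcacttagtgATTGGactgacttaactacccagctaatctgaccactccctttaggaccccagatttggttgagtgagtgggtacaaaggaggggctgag
H2-Oa (chr17:34092129-34092378): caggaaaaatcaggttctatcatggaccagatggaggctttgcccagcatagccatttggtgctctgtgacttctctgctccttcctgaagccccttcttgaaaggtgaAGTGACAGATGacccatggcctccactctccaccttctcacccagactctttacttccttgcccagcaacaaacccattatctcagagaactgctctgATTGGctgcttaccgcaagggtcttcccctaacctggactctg
In H2-DMb1 and H2-Eb1 23 and 22 bases lay between the boxes. In H2-Oa the X box letters began 141 bases and the Y box letters 43 bases before the start. In H2-DMb2 the stretch at the place of the H2-DMb1 X box reads attaaccgatg, with T for the G of AG. The search for exact letters misses such near matches.

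The first comparison asked how FceRIa-positive tumor macrophages differ from FceRIa-negative ones. The 10 genes had lower mean levels in FceRIa-positive macrophages, and the H2-DO inhibitor genes had the largest differences. No gene passed edgeR's unpaired test, and 8 passed in the paired fit, which takes the replicate number as a block. The exceptions were the invariant chain gene Cd74 and H2-Eb1. The 10 genes together took 2.19%, 3.69% and 3.40% of all counts in the FceRIa-positive libraries, against 4.65%, 4.99% and 5.12% in the FceRIa-negative libraries. The 95% Wilson intervals extend at most 0.0074 percentage points to each side and cover counting error only. The groups did not overlap in this share, and FceRIa-positive replicate 1 was the lowest of the 6 libraries. In bulk samples, fewer class II-bearing cells and less class II RNA per cell cannot be told apart.

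In edgeR's quasi-likelihood test without pairing, 0 of the 10 genes passed an adjusted p of 0.05, as did 0% of the 14988 genes tested, and 7 of 10 had an unadjusted p under 0.05, as did 15.6% of all genes. DESeq2 without pairing called 5 of the 10, all lower, against 3.78% of all genes called in either direction. In the edgeR fit with the replicate number as a block, 8 of 10 fell, against 10.2% of all genes that fell and 21% called in either direction, and 0 rose. Their median log2 difference was -0.69 without and -0.71 with the block, against a median over all genes of -0.004 in both fits. The CPM ranges of the groups did not overlap for 8 of the 10 genes, all lower in FceRIa-positive cells, against 9.78% of all genes that were lower without overlap and 21.4% without overlap in either direction. The exceptions were H2-Eb1 and H2-DMb2. Within a replicate number, 10, 10 and 9 of the 10 genes were lower in the FceRIa-positive library of numbers 1, 2 and 3.

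**Figure D1:**
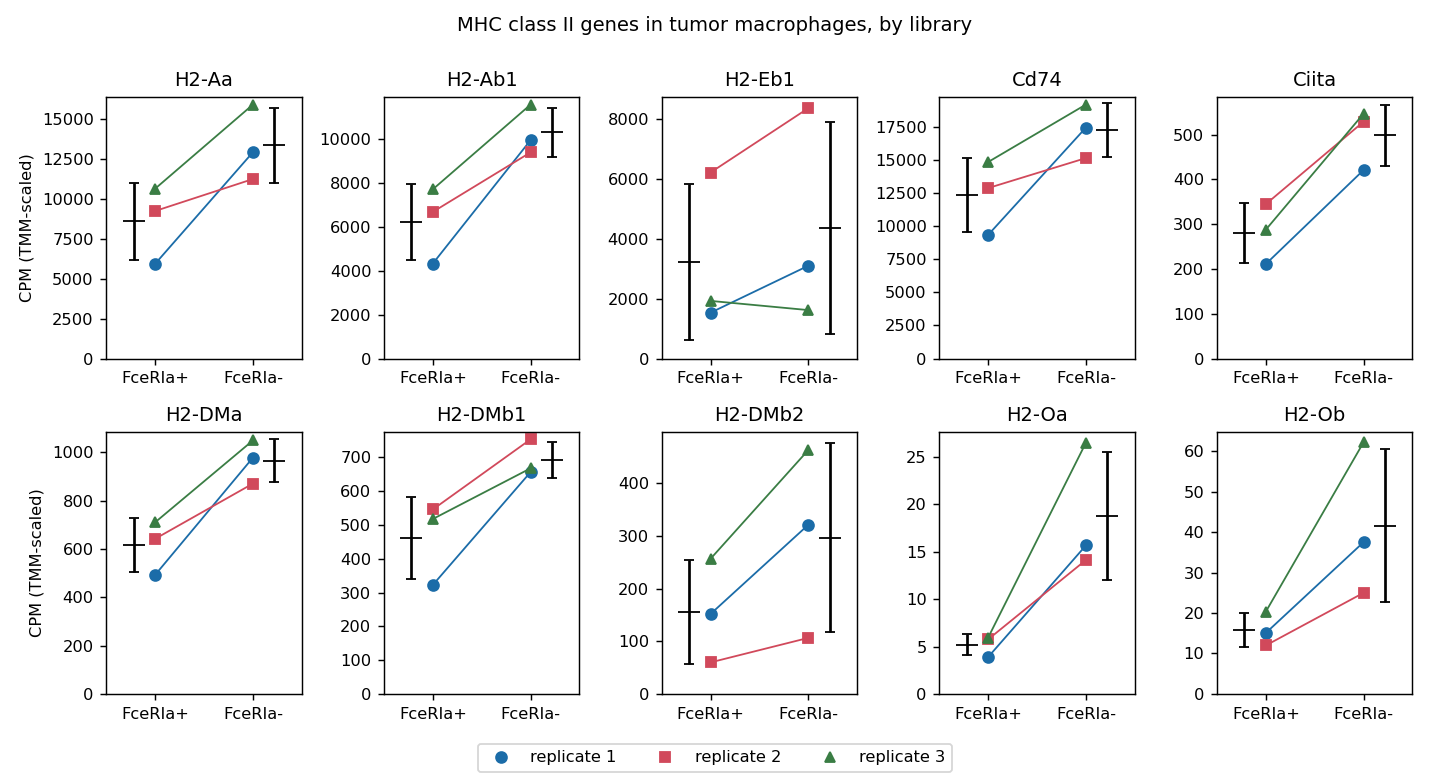
CPM of each of the 10 genes by library (y axis, from 0) in FceRIa-positive (left) and FceRIa-negative (right) macrophages, with replicate numbers by symbol and mean ± SD (n = 3) in black. FceRIa-positive libraries lie below every FceRIa-negative library for 8 genes, and in H2-Eb1 and H2-DMb2 the groups overlap, with replicate 2 highest in H2-Eb1 and lowest in H2-DMb2.

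The transactivator gene Ciita had 211, 345 and 288 CPM in the FceRIa-positive libraries, against 421, 529 and 547 CPM in the FceRIa-negative libraries. Each FceRIa-positive library was below each FceRIa-negative one. The mean was 281 ± 67.1 against 499 ± 68.2 CPM (SD, n = 3 each), a log2 difference of -0.83 ± 0.21 with an adjusted p of 0.106 in edgeR's unpaired fit and of -0.85 ± 0.10 with an adjusted p of 0.00104 in the paired fit.

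Among the peptide-binding chains, H2-Aa, the I-A alpha chain, had 5929, 9231 and 10628 CPM in FceRIa-positive macrophages, against 12908, 11230 and 15889 CPM in FceRIa-negative macrophages. H2-Ab1, the I-A beta chain, had 4324, 6676 and 7705 CPM in FceRIa-positive and 9943, 9388 and 11562 CPM in FceRIa-negative macrophages. The groups did not overlap in either gene, and replicate 1 showed the widest gap. With the block H2-Aa fell by 0.66 ± 0.18 on the log2 scale (edgeR adjusted p = 0.038, and 0.319 unpaired), and H2-Ab1 fell by 0.76 ± 0.17 (edgeR adjusted p = 0.0168, and 0.214 unpaired). The 2 chains kept almost the same proportion in every library: counts of H2-Ab1 were 0.723 to 0.729 of those of H2-Aa in FceRIa-positive and 0.728 to 0.836 in FceRIa-negative macrophages.

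H2-Eb1, the I-E beta chain, did not follow the sort. It had 1527, 6200 and 1921 CPM in FceRIa-positive macrophages, against 3091, 8344 and 1614 CPM in FceRIa-negative macrophages, so both replicate 2 libraries were the highest of all 6. Its log2 difference was -1.02, -0.43 and 0.25 within numbers 1, 2 and 3 (each on log2 of CPM plus 0.5), and the adjusted p in edgeR was 0.887 unpaired and 0.242 paired. Without FceRIa-negative replicate 2, which leaves its high FceRIa-positive counterpart in, the unpaired difference changed sign, to 0.47. Without both replicate 3 libraries it was -0.72 in the paired fit (edgeR adjusted p = 9.58e-05).

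Cd74, the invariant chain gene on chromosome 18, was the most abundant of the 10, at 9350, 12887 and 14859 CPM in FceRIa-positive macrophages, against 17462, 15157 and 19203 CPM in FceRIa-negative macrophages. Its ranges did not overlap, by a small margin. The log2 difference of -0.50 ± 0.18 in the paired fit missed the threshold (edgeR adjusted p = 0.0818, and 0.389 unpaired), and it depended on the replicates kept: in the paired fit it was -0.31 without both replicate 1 libraries, -0.64 without replicate 2 and -0.57 without replicate 3 (edgeR adjusted p = 0.304, 0.198 and 0.00785). Counts of Cd74 per count of H2-Ab1 were 2.16, 1.93 and 1.93 in FceRIa-positive and 1.76, 1.61 and 1.66 in FceRIa-negative macrophages. This ratio was higher in the FceRIa-positive library of each number. An exact two-sided permutation test gave p = 0.1, the smallest that 3 against 3 libraries allow (adjusted p = 0.35 over 7 ratios).

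The H2-DM genes had a similar pattern. H2-DMa, the alpha chain, had 493, 642 and 710 CPM in FceRIa-positive macrophages, against 977, 870 and 1049 CPM in FceRIa-negative macrophages, and fell by 0.66 ± 0.12 in the paired fit (edgeR adjusted p = 0.00697, and 0.118 unpaired). H2-DMb1, a beta chain, had 322, 546 and 518 CPM in FceRIa-positive macrophages, against 656, 753 and 668 CPM in FceRIa-negative macrophages, and fell by 0.62 ± 0.13 in the paired fit (edgeR adjusted p = 0.014, and 0.242 unpaired). The groups did not overlap in either gene. H2-DMb2, the other beta chain, had 152, 59.9 and 257 CPM in FceRIa-positive macrophages, against 321, 106 and 463 CPM in FceRIa-negative macrophages. Here the groups overlapped because both replicate 2 libraries were low, but within each number the FceRIa-positive library was the lower, and the gene fell by 0.92 ± 0.09 in the paired fit (edgeR adjusted p = 0.00044, and 0.605 unpaired). With the counts of both beta chain genes added, which removes the uncertain split, the log2 difference was -0.70 in the paired fit (edgeR adjusted p = 0.00612, and 0.176 unpaired).

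H2-Oa, the H2-DO alpha chain, had 3.90, 5.76 and 5.95 CPM in FceRIa-positive macrophages, against 15.7, 14.1 and 26.5 CPM in FceRIa-negative macrophages. H2-Ob, the beta chain, had 15.1, 11.98 and 20.3 CPM in FceRIa-positive macrophages, against 37.5, 25.0 and 62.2 CPM in FceRIa-negative macrophages. Neither gene overlapped between groups. H2-Oa averaged 0.277 and H2-Ob 0.38 of the FceRIa-negative mean, whereas the other 8 genes averaged 0.526 to 0.739 of it. H2-Oa fell by 1.82 ± 0.17 in the paired fit (edgeR adjusted p = 0.000474, and 0.0591 unpaired) and H2-Ob fell by 1.34 ± 0.11 (edgeR adjusted p = 0.000315, and 0.112 unpaired).

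The balance of inhibitor to editor was compared as counts of H2-DO genes per 100 counts of H2-DM genes. It was 1.96, 1.42 and 1.77 in FceRIa-positive macrophages, against 2.72, 2.26 and 4.07 in FceRIa-negative macrophages. The ratio was thus lower in the FceRIa-positive library of all 3 numbers, by 0.78 on the log2 scale on average, with no overlap. The exact two-sided permutation p was 0.1, the smallest this design allows, and 0.35 after adjustment over 7 ratios, so the difference did not pass the threshold. One direction in all 3 numbers was seen for 6 of the 7 ratios, all but that of Ciita to H2-Ab1. The ratios of H2-Eb1, H2-Aa, H2-DMa and Ciita to H2-Ab1 and of H2-DMb2 to H2-DMb1 had exact permutation p-values of 0.2 to 0.7.

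**Figure D2:**
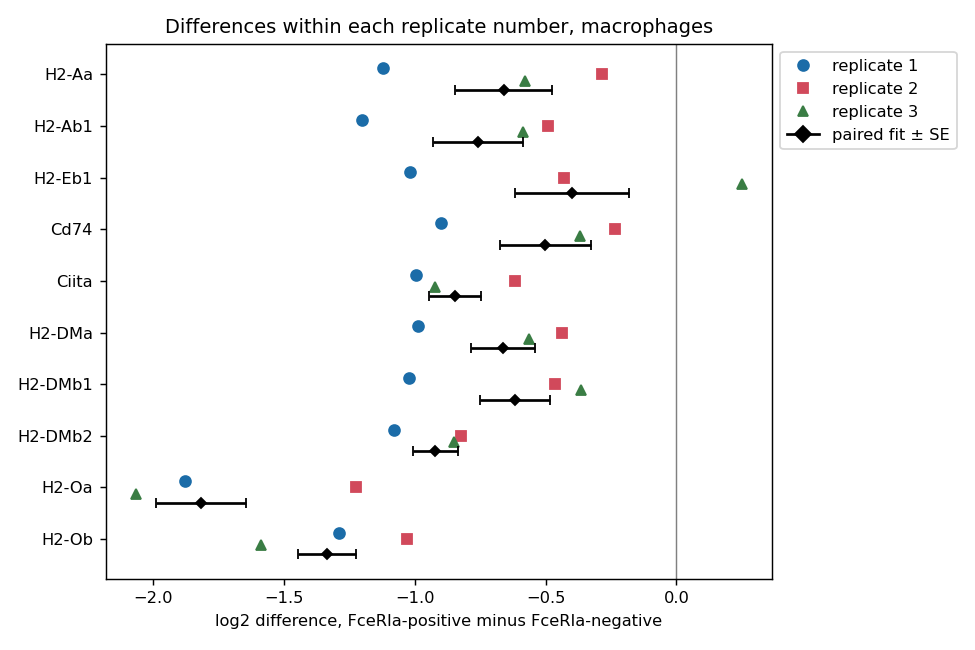
Log2 difference of FceRIa-positive minus FceRIa-negative macrophages (x axis) within each replicate number for the 10 genes (rows), with the paired edgeR estimate ± SE as a black diamond. All points lie left of 0 apart from H2-Eb1 in number 3 at 0.25, and H2-Oa and H2-Ob lie farthest left.

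Replicate 2 of both macrophage groups differed from replicates 1 and 3 in H2-Ea-ps and in the proportions of H2-Eb1 and H2-DMb2. H2-Ea-ps is annotated as a polymorphic pseudogene (chromosome 17, 34341959 to 34344645, - strand) and holds the I-E alpha chain, which C57BL/6 mice, the source of the reference genome, do not transcribe because of a promoter deletion. It had 50.4, 0.0273 and 98.4 CPM in FceRIa-positive macrophages, against 94.6, 0 and 199.9 CPM in FceRIa-negative macrophages. The replicate 2 libraries thus had 1 and 0 counts. Their H2-Eb1 counts were 0.929 and 0.889 of those of H2-Ab1, while the other FceRIa-positive libraries had 0.353 and 0.249 and the other FceRIa-negative libraries 0.311 and 0.14. Counts of H2-DMb2 per count of H2-DMb1 were 0.471, 0.11 and 0.496 in FceRIa-positive and 0.489, 0.141 and 0.694 in FceRIa-negative macrophages. The labels give FVB for every library, the deposited columns of both replicate 2 libraries carry the word New, and reads of differing alleles may be mapped with unequal success. What sets these libraries apart was not tested. Without both of them the unpaired log2 differences were -0.46 for H2-Eb1, -0.95 for H2-DMb2 and -0.84 for H2-Ab1. In the paired fit of the remaining libraries 7 of the 10 genes fell, while 17.8% of all genes were called in either direction. H2-Aa lost its call in this smaller fit at a larger log2 difference of -0.85 (edgeR adjusted p = 0.0638).

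**Figure D3:**
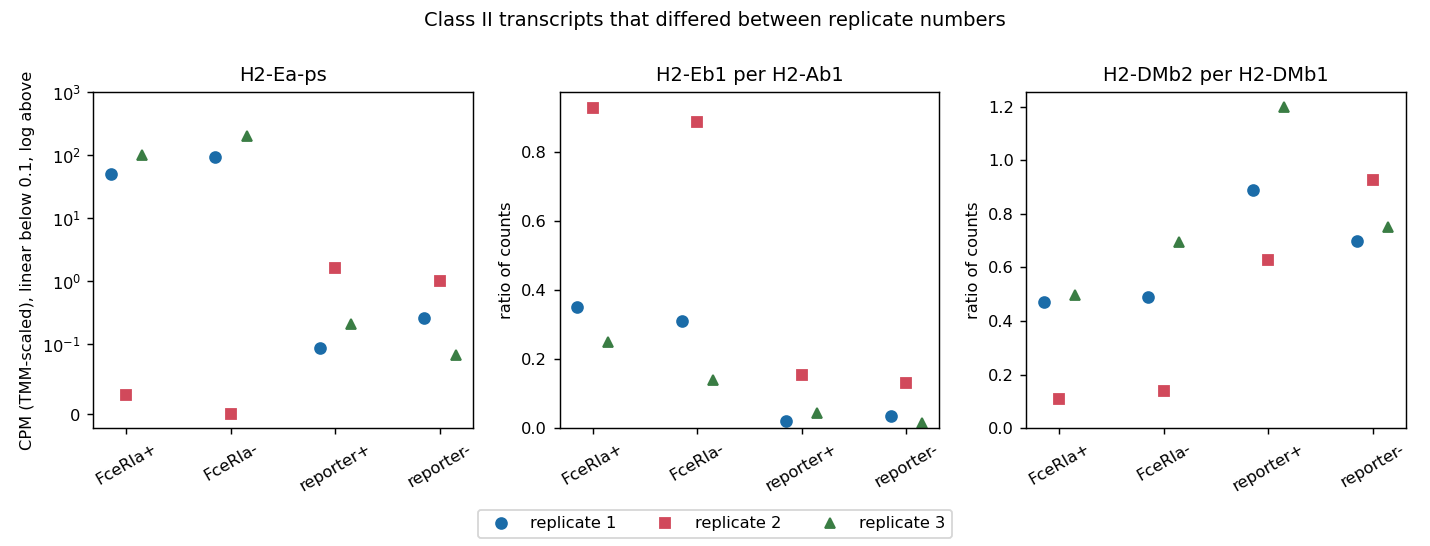
H2-Ea-ps in CPM (left panel, linear below 0.1 and log above), H2-Eb1 counts per H2-Ab1 count (middle) and H2-DMb2 counts per H2-DMb1 count (right) in the 12 libraries, with replicate number by symbol and FceRIa-positive, FceRIa-negative, reporter-positive and reporter-negative cells from left to right. In the macrophages replicate 2 has 0.0273 and 0 CPM of H2-Ea-ps and the highest H2-Eb1 and lowest H2-DMb2 ratios, and in the tumor cells replicate 2 holds the most H2-Ea-ps.

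Other class II genes and the machinery around them were read from lists. Besides H2-Ea-ps, which fell by 0.96 ± 0.11 in the paired fit (edgeR adjusted p = 0.000905, and 0.908 unpaired), H2-Eb2, an E beta-like gene of low expression, averaged 0.325 ± 0.169 CPM in FceRIa-positive and 1.62 ± 0.546 CPM in FceRIa-negative macrophages (edgeR adjusted p = 0.00141 paired and 0.0729 unpaired). The unpaired edgeR fit called 0 genes of any list in the macrophages, and the list counts that follow are from the paired fit, in which 10.8% of all genes rose and 10.2% fell. An unadjusted p under 0.05 in the unpaired fit was found for 15.6% of all genes. Of the 11 regulators (RFX, NF-Y and CREB subunits, Irf4, Irf8, Spi1 and Prdm1), 1 rose and 1 fell and the median log2 difference was -0.03, with 2 at an unadjusted p under 0.05 in the unpaired fit. Irf4, a lymphoid and dendritic cell factor, averaged 5.18 ± 1.29 CPM in FceRIa-positive and 9.19 ± 2.45 CPM in FceRIa-negative macrophages (edgeR paired adjusted p = 0.00288), and Prdm1, a repressor of Ciita transcription in plasma cells, averaged 44.8 ± 2.67 CPM in FceRIa-positive and 34.4 ± 0.360 CPM in FceRIa-negative macrophages (edgeR paired adjusted p = 0.00847). Of the 8 genes that process antigen and the invariant chain, 4 rose and 1 fell, with 5 at an unadjusted p under 0.05 in the unpaired fit. The genes that rose encode lysosomal proteases: Ctsb by 1.19 ± 0.16, Lgmn by 1.08 ± 0.17, Ctsd by 1.06 ± 0.12 and Ctsl by 1.03 ± 0.12 (edgeR paired adjusted p = 0.0019, 0.00313, 0.000981 and 0.000979). Ctsb, which encodes cathepsin B, averaged 6877 ± 238 CPM in FceRIa-positive and 3078 ± 706 CPM in FceRIa-negative macrophages.

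Of 9 genes for surface turnover and costimulation, 2 rose and 1 fell, with 3 at an unadjusted p under 0.05 in the unpaired fit. Cd83, whose product protects surface class II from the ubiquitin ligase MARCH1, averaged 201 ± 48.4 CPM in FceRIa-positive and 119 ± 19.2 CPM in FceRIa-negative macrophages (edgeR paired adjusted p = 0.000885). March8, which encodes a related ligase, averaged 88.9 ± 5.58 CPM in FceRIa-positive and 65.4 ± 2.06 CPM in FceRIa-negative macrophages (edgeR paired adjusted p = 0.0059). Cd40, the receptor of CD40 ligand on T cells, averaged 23.0 ± 3.25 CPM in FceRIa-positive and 37.8 ± 7.93 CPM in FceRIa-negative macrophages (edgeR paired adjusted p = 0.00111). Of 19 interferon gamma response genes, 2 rose, about the share of all genes, and 5 fell, and the median log2 difference was -0.006, with 5 at an unadjusted p under 0.05 in the unpaired fit. The kinase gene Jak2 fell by 0.84 ± 0.10, the peptide transporter gene Tap1 by 0.60 ± 0.07 and the immunoproteasome gene Psmb9 by 0.55 ± 0.09, and the GTPase gene Gbp7 rose by 0.60 ± 0.10 (edgeR paired adjusted p = 0.00128, 0.0011, 0.00401 and 0.00389).

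Markers of several other cell types differed between the same groups, in both directions. The 5 Langerhans cell markers summed to 368 to 566 CPM in FceRIa-positive and 1430 to 3600 CPM in FceRIa-negative macrophages, and 5 of 5 fell in the paired fit (5 at an unadjusted p under 0.05 unpaired). Among them Epcam averaged 31.1 ± 15.5 CPM in FceRIa-positive and 306 ± 196 CPM in FceRIa-negative macrophages. Of 9 dendritic cell markers tested, 6 fell, and the list of 10 summed to 756 to 1015 CPM in FceRIa-positive and 1095 to 1214 CPM in FceRIa-negative macrophages. Most of this sum was Itgax, whose groups overlapped, at 846 ± 117 CPM in FceRIa-positive and 974 ± 48.5 CPM in FceRIa-negative macrophages. Flt3, a receptor of dendritic cell precursors, averaged 1.36 ± 0.514 CPM in FceRIa-positive and 10.1 ± 5.07 CPM in FceRIa-negative macrophages. The 9 macrophage markers ran the other way, with 8 higher in the paired fit and sums of 15174 to 15744 CPM in FceRIa-positive, against 9128 to 12038 CPM in FceRIa-negative macrophages. B cell markers summed to 16.7 to 20.3 CPM in FceRIa-positive and 10.3 to 14.1 CPM in FceRIa-negative macrophages, with Pax5 at 0 to 3 counts per library, and Bank1 rose by 1.14 ± 0.15 in the paired fit (edgeR adjusted p = 0.00167). In FceRIa-positive macrophages T and NK cell markers summed to 4.48 to 8.52 CPM, mast cell and basophil markers to 7.94 to 39.2 CPM and keratinocyte markers to 237 to 1839 CPM. In FceRIa-negative macrophages the same lists summed to 8.91 to 44.4, 17.8 to 156 and 277 to 2602 CPM. The mast cell and basophil sums and the keratinocyte sums overlapped between the groups. In the paired fit 5 of 5 T and NK cell, 4 of 6 mast cell and basophil and 5 of 6 keratinocyte markers tested fell, against 10.2% of all genes. In the unpaired fit 4, 3 and 0 of these had an unadjusted p under 0.05. So did 4 of 9 dendritic cell and 8 of 9 macrophage markers, against 15.6% of all genes. Markers of cells with and without class II were thus among those that fell in the paired fit. The part of these cells in the class II differences was not tested.

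The genes whose profile was most like that of the 10 were found among 8810 genes with a mean of at least 10 CPM, by Pearson's r with the mean log2 level of the 10 over the 6 macrophage libraries. They were Aurka (r = 0.996), Cd52 (0.992), Cdca5 (0.991), Ccna2 (0.991), Rnf34 (0.99), Kif2c (0.989), Adora3 (0.989) and H2afz (0.988). Aurka, Cdca5, Ccna2 and Kif2c act in mitosis or the cell cycle. Ccna2, cyclin A2, averaged 21.2 CPM in FceRIa-positive and 43.9 CPM in FceRIa-negative macrophages, and Cd52, a leukocyte surface glycoprotein, averaged 284 CPM in FceRIa-positive and 478 CPM in FceRIa-negative macrophages. These r values describe 6 libraries that also share the split by sort.

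In the basal tumor cells the question was whether cells responding to TGF-beta differ from their neighbours. Class II transcripts were scarce, all 10 genes overlapped between the groups, and the largest gap lay between replicate 2 and the other libraries. The 10 genes summed to 23.7, 162 and 23.2 CPM in reporter-positive cells, against 19.1, 127 and 16.7 CPM in reporter-negative cells. Both replicate 2 libraries were several-fold above the rest, and within each number the reporter-positive library had the higher sum. Over all genes tested, 28.2% had groups that did not overlap. In edgeR's unpaired test 0 of the 7 genes that passed the count filter were called, against 0.809% of 13604 genes (0.573% higher and 0.235% lower). DESeq2 without pairing also called 0, against 4% of all genes, but it gave no adjusted p for H2-Aa, H2-Eb1 and Cd74. In edgeR's unpaired test 0 of the 7 had an unadjusted p under 0.05. H2-Oa, H2-Ob and Ciita did not pass the filter. With the replicate number as a block, 1 of 7 rose and 0 fell, against 10.7% of all genes that rose and 18% called in either direction.

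H2-Ab1 was that gene. It had 12.2, 46.9 and 12.3 CPM in reporter-positive cells, against 7.34, 34.9 and 7.20 CPM in reporter-negative cells, and was higher in the reporter-positive library of every number. With the block it rose by 0.62 ± 0.09 on the log2 scale (edgeR adjusted p = 0.0109), and the unpaired log2 difference was 0.54 ± 0.81 (edgeR adjusted p = 0.784). Without both replicate 2 libraries the unpaired difference was 0.75 with an edgeR adjusted p of 4.43e-07, in a fit where 39.7% of all genes tested were called. That p rests on a small spread. Numbers 1 and 3 differed by 1.62 (reporter-positive) and 3.11 (reporter-negative) in chi-square per degree of freedom, against 46.9 to 99.4 for pairs with replicate 2. Nothing says that numbers 1 and 3 came from separate mice. H2-Aa, the partner of H2-Ab1, was not called in the paired or the unpaired fit of all 6 libraries. It had 4.08, 42.9 and 3.55 CPM in reporter-positive cells, against 3.87, 34.7 and 3.69 CPM in reporter-negative cells (edgeR adjusted p = 0.321 paired and 0.939 unpaired). Counts of H2-Ab1 per count of H2-Aa were 3, 1.09 and 3.46 in reporter-positive and 1.9, 1 and 1.95 in reporter-negative tumor cells, so that the beta chain exceeded the alpha chain by most in replicates 1 and 3, and in the macrophages it lay below it in every library.

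The other genes had far fewer counts outside replicate 2, and H2-Eb1, H2-DMb1, H2-DMb2, Ciita, H2-Oa and H2-Ob came close to the limit of detection there. Cd74 had 172, 1712 and 142 counts in reporter-positive and 209, 1411 and 158 counts in reporter-negative cells. H2-Eb1 had 8, 222 and 15 counts in reporter-positive and 9, 141 and 4 counts in reporter-negative cells, and Ciita had 0, 59 and 5 counts in reporter-positive cells, against 10, 36 and 3 counts in reporter-negative cells. H2-DMa had 37, 107 and 23 counts in reporter-positive cells, against 28, 92 and 23 counts in reporter-negative cells. H2-DMb1 had 9, 51 and 10 counts in reporter-positive and 10, 40 and 8 counts in reporter-negative cells. H2-DMb2 had 8, 32 and 12 counts in reporter-positive and 7, 37 and 6 counts in reporter-negative cells. H2-Oa and H2-Ob had 0 to 2 counts in reporter-positive and 0 to 4 counts in reporter-negative libraries, at or about the 3 counts that a count of 0 allows.

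Leukocyte RNA had the same order over these libraries. The 8 leukocyte markers summed to 15.2, 55.8 and 14.0 CPM in reporter-positive cells, against 13.6, 43.7 and 11.1 CPM in reporter-negative cells, and the pan-leukocyte gene Ptprc had 0.917, 2.56 and 1.07 CPM in reporter-positive and 0.996, 1.73 and 0.681 CPM in reporter-negative cells. The 10 class II genes held 1.56, 2.89 and 1.66 CPM per CPM of that list in reporter-positive and 1.41, 2.91 and 1.5 in reporter-negative cells. Counts of Cd74 per count of Csf1r were 2, 4.96 and 2 in reporter-positive and 3.12, 5.69 and 2.87 in reporter-negative cells. T and NK cell markers were at 0 in every tumor library for 5 of 6 genes, and Xcr1 and Clec9a of the dendritic cell list were at 0 in all. In the paired fit the 9 macrophage markers had a median log2 difference of 0.43, beside 0.62 for H2-Ab1. All 9 had an unadjusted p under 0.05, as did 34.3% of all genes, 8 of them higher in reporter-positive cells, and 1 (Csf1r, by 0.54 ± 0.12) was called (edgeR adjusted p = 0.0325). The part of leukocyte RNA in the class II level of these libraries was not tested.

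**Figure D4:**
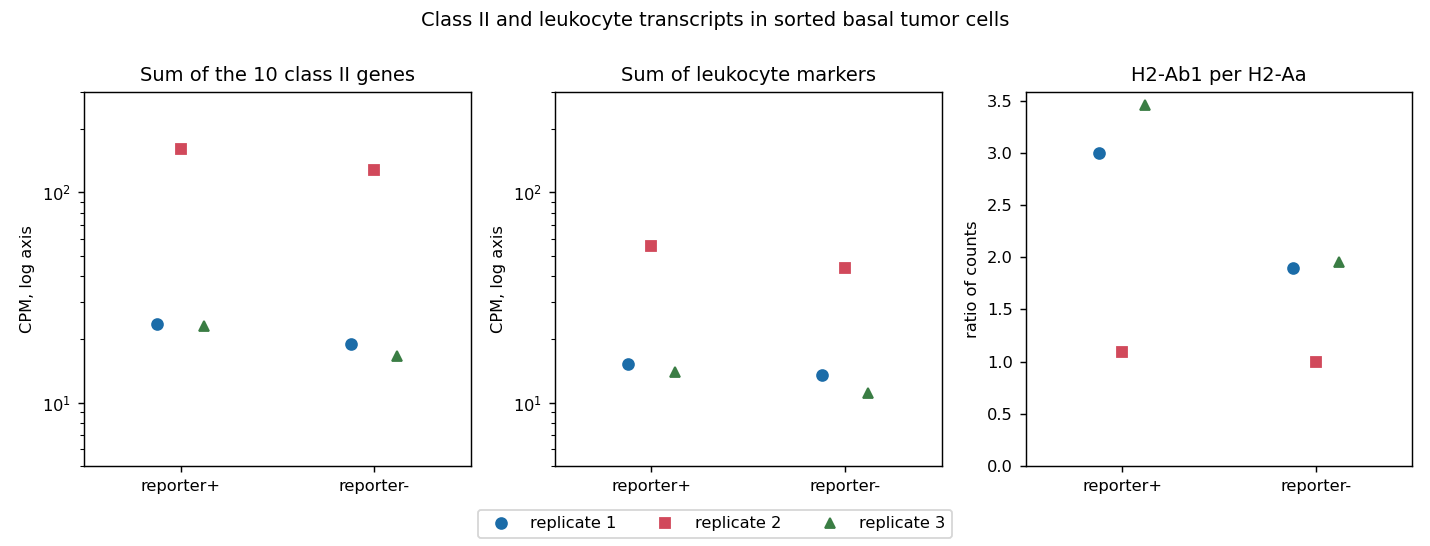
Summed CPM of the 10 class II genes (left, log axis), summed CPM of the 8 leukocyte markers (middle, log axis) and counts of H2-Ab1 per count of H2-Aa (right, from 0) in reporter-positive (left in each panel) and reporter-negative (right) basal tumor cells, with replicate number by symbol. Both sums are highest in replicate 2 of both groups, where the H2-Ab1 ratio is lowest, at 1.09 in reporter-positive and 1 in reporter-negative cells.

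Around the class II genes of the tumor cells, the regulator Prdm1 rose and Nfyb, an NF-Y subunit, fell in the unpaired fit. Prdm1 averaged 14.6 ± 2.19 CPM in reporter-positive and 4.82 ± 1.04 CPM in reporter-negative cells (edgeR adjusted p = 0.0412), and Nfyb averaged 29.9 ± 1.90 CPM in reporter-positive and 41.3 ± 1.10 CPM in reporter-negative cells (edgeR adjusted p = 0.0484). These were 1 higher and 1 lower of the 10 regulators tested, against 0.573% of all genes higher and 0.235% lower. Among 5 costimulation genes tested, Cd80, a ligand of CD28 and CTLA-4, averaged 40.2 ± 1.13 CPM in reporter-positive and 26.0 ± 1.11 CPM in reporter-negative cells (edgeR adjusted p = 0.0341) and was the 1 gene called. Calls in the unpaired fit depended on single libraries. Over all genes 0 were called without reporter-positive replicate 3, reporter-negative replicate 1 or reporter-negative replicate 3. Without reporter-positive replicate 1 there were 1 higher and 0 lower, and without reporter-positive replicate 2 there were 391 higher and 230 lower. Of 16 interferon gamma response genes tested, 0 were called in edgeR's unpaired fit (1 at an unadjusted p under 0.05) and 2 rose in the paired fit, and of 8 processing genes 0 were called unpaired (0 at an unadjusted p under 0.05) and 2 rose paired, against 10.7% of all genes that rose in the paired fit. Psmb8 of the immunoproteasome rose by 0.53 ± 0.08 (edgeR paired adjusted p = 0.0109).

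Across the series the macrophages held far more class II RNA than the sorted tumor cells. The geometric mean of the summed level of the 10 genes was 984-fold higher in the 6 macrophage libraries than in the 6 tumor libraries (9.94 ± 1.53 on the log2 scale, SD). The fold between single libraries of the 2 tables ran from 138 to 3070. Without both tumor replicate 2 libraries the log2 ratio was 10.88. Levels were scaled within each table, and no test was made across them.

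Compared per kilobase of exon, Cd74 had the highest mean level in all 4 groups. The length was that of all annotated exons of a gene merged, which can exceed the transcript in use. By CPM alone H2-Aa lay above H2-Ab1 in every macrophage library. In FceRIa-positive macrophages Cd74 averaged 7365 ± 1663 CPM per kilobase, followed by H2-Ab1 at 2428 ± 675, H2-Aa at 2263 ± 635 and H2-Eb1 at 1654 ± 1333. H2-DMb1 averaged 275 ± 72.4 CPM per kilobase there, H2-DMa 178 ± 32.3, H2-DMb2 89.4 ± 56.4, Ciita 29.5 ± 7.04, H2-Oa 3.70 ± 0.807 and H2-Ob 2.94 ± 0.785. In FceRIa-negative macrophages Cd74 averaged 10288 ± 1209 CPM per kilobase, H2-Ab1 4010 ± 440, H2-Aa 3513 ± 621 and H2-Eb1 2238 ± 1819. H2-DMb1 averaged 412 ± 31.6 CPM per kilobase in those cells, H2-DMa 280 ± 26.1, H2-DMb2 170 ± 103, Ciita 52.4 ± 7.15, H2-Oa 13.4 ± 4.79 and H2-Ob 7.72 ± 3.52. The order was the same in both groups. Cd74 stood clear of H2-Ab1, H2-Eb1 clear of H2-DMb1, and Ciita clear of H2-Oa over the libraries of each group. Neighbours that overlapped in both groups were H2-Ab1 and H2-Aa, H2-Aa and H2-Eb1, H2-DMa and H2-DMb2, and H2-Oa and H2-Ob, while H2-DMb1 with H2-DMa and H2-DMb2 with Ciita overlapped in FceRIa-positive macrophages and not in FceRIa-negative ones. In reporter-positive tumor cells Cd74 averaged 13.2 ± 17.5, H2-Ab1 9.27 ± 7.79 and H2-Aa 4.44 ± 5.94 CPM per kilobase. In reporter-negative tumor cells Cd74 averaged 11.2 ± 14.1, H2-Ab1 6.42 ± 6.21 and H2-Aa 3.71 ± 4.70 CPM per kilobase. Outside replicate 2 Cd74 was at 3.005 to 3.24, H2-Ab1 at 4.76 to 4.79 and H2-Aa at 0.935 to 1.07 CPM per kilobase in reporter-positive tumor cells, and at 2.67 to 3.54, 2.81 to 2.86 and 0.971 to 1.02 in reporter-negative ones, so that H2-Ab1, not Cd74, was highest in those reporter-positive libraries. All neighbours in the order overlapped in the tumor cells, except H2-DMb2 and H2-Oa in reporter-negative ones.

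**Figure D5:**
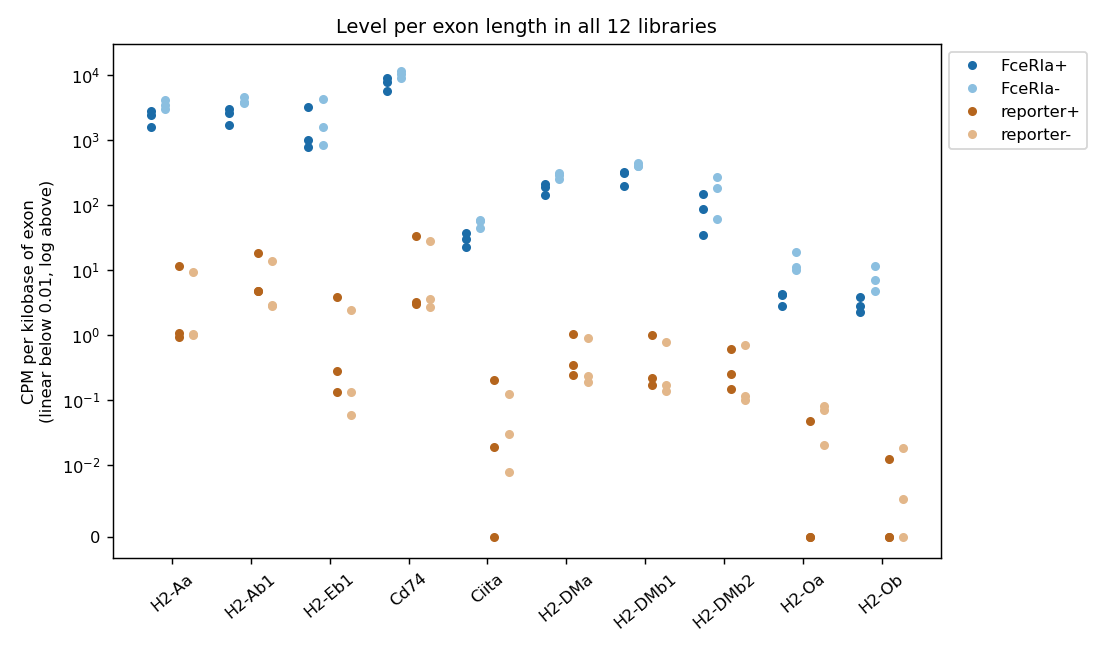
CPM per kilobase of exon (y axis, linear below 0.01 and log above) of the 10 genes in the 12 libraries, with FceRIa-positive, FceRIa-negative, reporter-positive and reporter-negative cells from left to right within each gene. Cd74 is highest in every group on average, and each macrophage library lies above each tumor library for every gene.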

How the data were processed

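Sorted cells were lysed in Trizol and 100 ng of total RNA went into each Illumina TruSeq v2 library, per the labels' protocols. The authors deposited raw counts of reads per gene. The submitters' processing notes name STAR, FastQC and mm10 (GRCm38) and give no versions. The counting tool, the annotation and the strandedness were not given in the sources used here. Rows that name no gene numbered 0. The tumor table also has 4 columns of counts of no sample in this series, which were not used. Of 53801 gene IDs, 53620 were matched in GENCODE M21, which gave coordinates and exon lengths.

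Each table was tested on its own 6 libraries with edgeR 4.0.16 in R 4.3.3 (TMM scaling, filterByExpr, quasi-likelihood test, Benjamini-Hochberg adjustment over all genes tested, threshold 0.05), first without pairing. Deviations from group means of same-numbered libraries correlated at 0.729, 0.831 and 0.762 in the macrophages (numbers 1 to 3), each best with its own number, and at 0.554, 0.733 and 0.56 in the tumor cells. All exceeded 0.1, so the number was also used as a block. Reporter-positive replicate 3 correlated at 0.571 with reporter-negative replicate 1, so the values do not show that tumor numbers 1 and 3 each mark a pair. Nothing says that libraries came from separate mice, so p-values measure the spread between these libraries. Pairs of libraries of 1 group differed by 1.62 or more in chi-square per degree of freedom, beyond counting noise. The lowest values were those of tumor numbers 1 and 3, at 1.62 in reporter-positive and 3.11 in reporter-negative cells. Macrophage pairs differed by 55.6 to 158. The paired fit has 2 residual degrees of freedom.

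The 10 genes and all lists were chosen with earlier results of these data known. By rule the text could name the 10 genes, the 8 of most similar profile and, per list and comparison, the 4 with the smallest p. Csf1r, Krt14, Fcer1a, Itgax in the macrophages and the low-count markers were named after their values were seen. H2-DMb1 and H2-DMb2 were also summed. Alternatives were DESeq2 1.42.0, other scaling factors and count filters, the block, and leaving out libraries. Scripts were tested on simulated data.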

Additional observations from a re-analysis of the deposited data

How the results depend on the processing

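In the macrophages the number of the 10 genes called, all lower, was 0 in edgeR's unpaired fit and 3 with no count filter. It was 5 with DESeq2 (H2-Ab1, H2-DMa, H2-Oa, H2-Ob and Ciita), 8 with the replicate block and 9 with the block in DESeq2. These fits called 0%, 1.98%, 3.78%, 21% and 8.88% of all genes, in that order. With the block the number was 5, 7 and 10 without replicate 1, 2 and 3, where 8.64%, 17.8% and 21.6% of all genes were called. The number stayed 0 with other scaling factors, a stricter filter and each library left out (range 0 to 0). In tumor cells the count was 0, and 1 (H2-Ab1) with the block (18% of all genes called) and with the block in DESeq2 (6.81%). It was also 1 with the block without number 1, 2 or 3 (11.3%, 42.1% and 8.27% of all genes called). Unpaired without both replicate 2 libraries it was 1 as well (39.7%). With single libraries left out the count was 0 to 0. Apart from H2-Eb1, whose unpaired log2 difference was -1.33 to 0.47 with a library left out, the macrophage genes were lower in every fit. Tumor directions depended on replicate 2. With 1 tumor library left out, the log2 difference was -1.88 to 2.15 for H2-Aa, -0.43 to 1.71 for H2-Ab1, -2.07 to 3.84 for H2-Eb1, -0.57 to 1.33 for H2-DMa, -0.90 to 1.58 for H2-DMb1, -0.61 to 1.62 for H2-DMb2 and -1.85 to 2.09 for Cd74, lowest without reporter-positive replicate 2 and highest without reporter-negative replicate 2. With the block and without replicate 3, H2-DMb2 was at -0.057 (the cause was not tested). The log2 difference of the H2-DO to H2-DM ratio was -0.97 to -0.54, and the macrophage to tumor log2 ratio 9.70 to 10.35, each with a library left out. Fits without a replicate number, the block in DESeq2 and settings of the last ratio were added after seeing the data. Depth limits H2-Oa, H2-Ob, H2-Eb1, H2-DMb1, H2-DMb2 and Ciita in the tumor cells.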
